A study of Mus musculus with 180 samples.

Results

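Aminoacyl-tRNA synthetases, the enzymes that join each amino acid to its tRNAs, were examined in ribosome-associated and uncaptured RNA from the mouse hippocampus. The members were taken from the count table by symbol: a capital letter followed by ars, with or without a final 1 or 2, together with Eprs, Farsa, Farsb and Tarsl2. This rule found 38 of the 54429 genes in the table. Symbols ending in 2 other than Tarsl2 were taken as mitochondrial enzymes (17), and the rest as cytosolic enzymes (21). The split went by symbol alone, so a gene that serves both places, such as Gars or Kars, was counted as cytosolic.

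Cells translate in more than one place, and most amino acids are charged by separate nuclear genes for the cytosol and for mitochondria. The cytosolic enzymes fall into class I and class II by the fold of their catalytic domain, and several of them, with scaffold proteins, form the multisynthetase complex. Many cytosolic synthetase genes are known targets of ATF4, the transcription factor of the integrated stress response, and inherited variants in several synthetases cause neuropathy or encephalopathy.

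The study took 6 libraries from each of 30 male mice, 180 in all. Every mouse carried the transgene Tg(Camk2a-cre)T29-1Stl/J on the B6.Cg background and came from a cross with the RiboTag line B6N.129-Rpl22tm1.1Psam/J, in which Cre puts an HA tag on the ribosomal protein Rpl22, here in neurons that express Camk2a-cre. Anti-HA antibody gave the Camk2a capture. An antibody to ribosomal protein S6 phosphorylated at residues 244-247 gave the pS6 capture, used to mark highly active neurons. The uncaptured lysate was the Input. Each library kind was prepared from a cytosolic supernatant and from a membrane pellet. Mice either underwent contextual fear conditioning (CFC) or did not (NoCFC), and then either slept (Sleep) or were sleep deprived (SD), which gave 8 Sleep and 7 SD mice without training and the same numbers with it. Age and the length of SD are not given in the sources used here. No group lacked the Cre or the tag. The pS6 capture was not limited to Cre-expressing cells or to neurons, and neuronal activity was not measured here.

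Library totals ranged from 11.98 to 26.95 M counts (mega-counts). All 38 members had counts in every library, the lowest being 24 counts, and all passed the filter on low counts in each comparison. The Camk2a transcript was higher in the Camk2a capture than in Input by 0.73 on the log2 scale in both fractions. Summed markers of inhibitory neurons had a median of 128 CPM (counts per M counts of the library, scaled by TMM normalization factors) in the cytosolic Camk2a capture, against 765 in the cytosolic pS6 capture and 607 in the cytosolic Input. For gene values printed beside a comparison, the factors were fitted to the libraries of that comparison. The same library can therefore have different CPM of a gene in different comparisons. In membrane pS6, 7 mice had 3962 to 13394 CPM of the choroid plexus transcripts Ttr and Kl and the other 23 had 36.1 to 299, here by library totals without factors. Those 7 mice were 2 Sleep and 1 SD without training, and 1 Sleep and 3 SD with it, and calls that changed without them are named below.

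Promoters were searched for TGATGNAA on either strand (reverse complement TTNCATCA), a motif of the kind bound by ATF4 and its partners. The search was chosen after the cytosolic synthetases were seen to move together between captures. Whether the motif bears on that difference was not tested. RefSeq's promoter table for GRCm38.p6 held 28 of the 38 members. Within the 250 bases before the start, 3 of the 28 (10.7%) held the motif, against 1056 of 27025 genes with a listed promoter (3.91%). All 3, Aars, Gars and Tars, were cytosolic enzymes often listed as ATF4 targets, a group in which 8 genes had a listed promoter. None of the 14 mitochondrial enzymes with a listed promoter held it. The matches in Gars and Tars are shown 5′ to 3′ on the gene's own strand, with the motif in capitals. They lay 30 bases before the start of Gars at chr6:55037960-55037989, and 15 bases before that of Tars, on the minus strand, at chr15:11399659-11399684.
Gars: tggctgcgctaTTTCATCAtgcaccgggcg
Tars: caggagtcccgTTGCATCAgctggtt
These letters describe the sequence, and binding was not measured.

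Levels were first set beside each other per kilobase of exon, on 1 scale for all 180 libraries. In the cytosolic Camk2a capture the cytosolic enzymes had a median level of 17.1 CPM per kilobase and the mitochondrial enzymes 5.40. In the membrane Camk2a capture the medians were 15.5 and 2.91. Both pS6 medians for cytosolic enzymes were lower, 9.94 in the cytosolic fraction and 8.83 in the membrane fraction, with 4.12 and 2.43 for mitochondrial enzymes. The Input lay between, at 13.5 and 9.76 for cytosolic and 4.37 and 2.80 for mitochondrial enzymes.

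Hars, which charges histidine tRNA, had the highest level among cytosolic enzymes in the cytosolic Camk2a capture, 81.1 ± 3.6 CPM per kilobase (SD, n = 30). Gars (glycine, 61.0 ± 3.6), Wars (tryptophan, 60.2 ± 3.3) and Nars (asparagine, 56.3 ± 2.3) followed. Gars and Wars differed by less than their SD, and Sars (serine, 49.6 ± 3.3) and Farsb, the beta subunit for phenylalanine (44.0 ± 1.9), came next. Eprs, the bifunctional enzyme for glutamate and proline, was the lowest of the cytosolic enzymes per kilobase, at 4.61 ± 0.34. Its merged exons, 18102 bases, were the longest of all members. Merged exons of all annotated transcripts can exceed the length of the mRNA. Ranks and medians per kilobase, here and below, depend on these lengths and need not hold for CPM. The 8 enzymes of the multisynthetase complex had a median level of 13.02, and the 13 cytosolic enzymes outside it 31.8. The 2 subunits of the cytosolic phenylalanine enzyme had unequal levels, with Farsa at 10.5 ± 1.0. In the membrane Camk2a capture the order was headed by Nars (61.7 ± 5.0) and Gars (51.1 ± 4.1), with Wars at 38.6 ± 3.5 and Hars at 34.1 ± 2.5. Tarsl2, a second cytosolic threonine enzyme, was lowest there at 3.59 ± 0.41.

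Among mitochondrial enzymes, Lars2 (leucine) stood far above the rest in every library type. The gene lies on the plus strand of chromosome 9, from 123366927 to 123462666 (GRCm38), and no other annotated gene shares its exon bases. Its level was 384 ± 43.6 CPM per kilobase in cytosolic Camk2a, 1362 ± 211 in membrane Camk2a, 277 ± 23.7 in cytosolic pS6, 1043 ± 150 in membrane pS6, 235 ± 31.3 in cytosolic Input and 452 ± 66.2 in membrane Input. It took 84.0 to 90.4% of all synthetase counts in a membrane Camk2a library and 41.8 to 63.2% in a cytosolic Input library. The next mitochondrial enzymes in cytosolic Camk2a were Rars2 (arginine, 11.1 ± 0.74) and Yars2 (tyrosine, 10.1 ± 0.77), which differed by less than 2 SD. Mars2 (methionine) was lowest at 1.26 ± 0.14. Without Lars2, which was left out after its values were seen, the mitochondrial medians were 5.09 and 2.90 CPM per kilobase in cytosolic and membrane Camk2a. The pS6 medians became 3.83 and 2.35, and those of Input 4.02 and 2.70. Counts per gene do not show which part of the Lars2 transcript they come from.

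**Figure D1:**
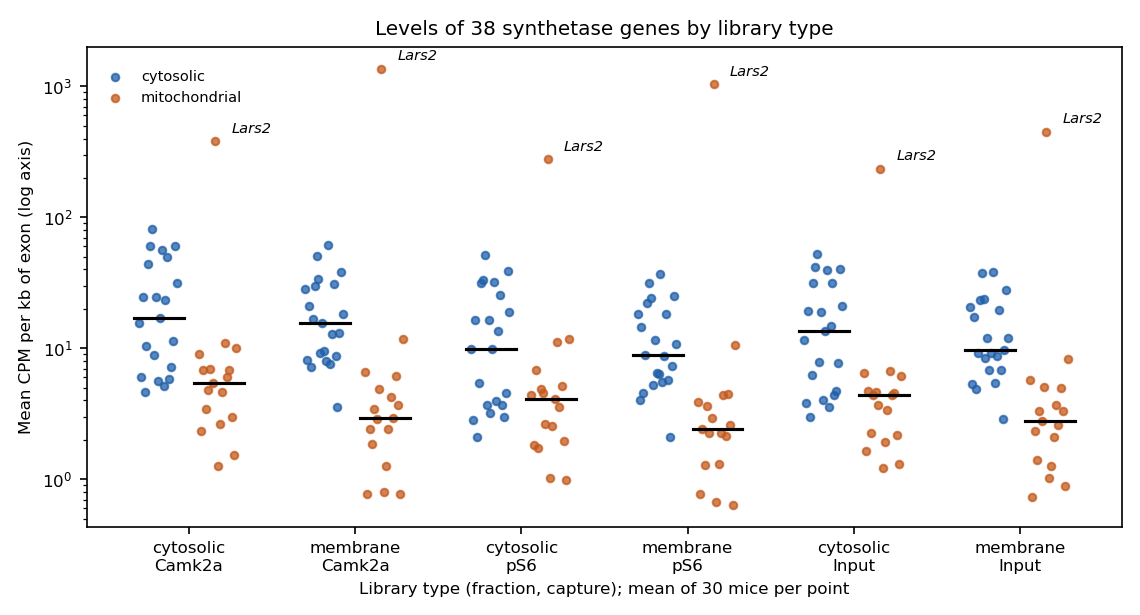
Mean level of each synthetase (CPM per kilobase of exon, log axis) in the 6 library types, each point 1 gene averaged over 30 mice and each bar the median of its set, with cytosolic and mitochondrial enzymes drawn separately. Lars2 stands apart in every type, and most cytosolic enzymes lie above most mitochondrial ones.

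The comparison of the 2 captures asked how the transcripts on ribosomes of pS6-positive cells differ from those on HA-tagged ribosomes of Camk2a-cre neurons. All 21 cytosolic synthetases were lower in pS6 than in Camk2a in both fractions by edgeR's quasi-likelihood test (adjusted p under 0.05, Benjamini-Hochberg over all genes tested). Of all genes tested, 45.9% were lower in the cytosolic fraction and 40.1% in the membrane fraction. The median difference of the cytosolic enzymes was -0.77 (log2) in the cytosolic fraction and -0.58 in the membrane fraction, against -0.01 and 0.04 over all genes. The mitochondrial enzymes had smaller median differences: 12 were lower and 1 was higher in the cytosolic fraction (median -0.38), where 44.8% of all genes were higher, and 11 were lower and 0 higher in the membrane fraction (median -0.24), where 43.7% of all genes were higher. A fold of at least 2 was reached by 7 members in the cytosolic fraction and 0 in the membrane fraction, against 28% and 13.9% of all genes.

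Vars, the valine enzyme, had 54.9, 64.1 and 71.4 CPM (lowest, median and highest of 30) in cytosolic Camk2a and 18.1, 26.4 and 34.4 in cytosolic pS6. Every pS6 library lay below every Camk2a library, and the difference was -1.28 ± 0.043 (log2, SE; adjusted p = 2.4e-38 by edgeR). Iars, the isoleucine enzyme of the multisynthetase complex, had 38.3, 47.6 and 56.7 CPM in Camk2a and 16.6, 19.5 and 27.5 in pS6. Its ranges did not overlap either, with a difference of -1.25 ± 0.043 (adjusted p = 6.6e-38 by edgeR). Tarsl2 had 43.3, 48.7 and 56.7 CPM in Camk2a and 17.5, 20.7 and 24.7 in pS6, again without overlap, a difference of -1.24 ± 0.035.

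Eprs (-1.10), Cars, which charges cysteine tRNA (-1.05), Sars (-0.94), Farsa (-0.92) and Gars (-0.84) came next in the cytosolic fraction. Qars, the glutamine enzyme, had the smallest difference, -0.35 ± 0.031, and was the 1 cytosolic enzyme whose ranges overlapped, at 27.6 to 40.6 CPM in Camk2a and 22.4 to 31.2 in pS6. The other 20 of 21 did not overlap in that fraction, nor did 4 of 17 mitochondrial enzymes (Aars2, Ears2, Hars2 and Iars2), where 35.6% of all genes tested did not. In the membrane fraction 9 of 21 cytosolic and 0 of 17 mitochondrial enzymes did not overlap, where 12.5% of all genes did not. There Cars had the largest difference, -0.98 ± 0.050, with 40.0, 48.6 and 56.2 CPM in Camk2a and 13.5, 24.8 and 31.6 in pS6. Mars (methionine) had the smallest, -0.29 ± 0.045, and was lower in 26 of 30 mice.

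The direction was shared by structural class and by assembly. Class I enzymes had a median difference of -0.78 in the cytosolic fraction and -0.60 in the membrane fraction, and class II -0.65 and -0.58. Members of the multisynthetase complex had -0.76 and -0.50, and cytosolic enzymes outside it -0.79 and -0.70. The 13 often listed as ATF4 targets had -0.79 and -0.65, and the 8 cytosolic enzymes not so listed -0.60 and -0.47.

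The mitochondrial set was uneven. Aars2 (alanine, -1.02 ± 0.041), Iars2 (isoleucine, -1.01 ± 0.037) and Ears2 (glutamate, -0.96 ± 0.044) were lower in cytosolic pS6 by as much as many cytosolic enzymes. Aars2 had 36.1, 43.1 and 50.5 CPM in Camk2a and 15.8, 22.1 and 28.1 in pS6. Yars2 was the 1 member that was higher in cytosolic pS6, at 26.8, 32.7 and 35.6 CPM in Camk2a and 32.4, 37.9 and 45.5 in pS6. Its ranges overlapped, and the difference was 0.23 ± 0.030 (adjusted p = 1.6e-10 by edgeR, higher in 29 of 30 mice). In the membrane fraction Yars2 was lower, by -0.12 ± 0.043. Nars2 (-0.04), Rars2 (0.03) and Fars2 (0.06), which charge asparagine, arginine and phenylalanine tRNA in mitochondria, did not pass the test in the cytosolic fraction, with SEs of 0.029 to 0.039. The same genes and Pars2 (proline) and Cars2 (cysteine) did not pass it in the membrane fraction. Without the choroid-rich mice, Pars2 was not called in the cytosolic fraction (-0.10, adjusted p = 0.051 by edgeR, from -0.16) nor Wars2 in the membrane fraction (-0.18, adjusted p = 0.18, from -0.24).

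The cell populations of the captures differed too. The Camk2a transcript was lower in pS6, by -0.86 (log2) in the cytosolic fraction and -0.70 in the membrane fraction. Summed inhibitory neuron markers rose from a median of 128 to 765 CPM in the cytosolic and from 522 to 1640 in the membrane fraction, with all 7 markers above 1 CPM in each. Summed astrocyte markers (6 genes) had medians of 172 and 483 CPM in cytosolic Camk2a and pS6, and haemoglobin transcripts (3 genes) 2.29 and 119, with Hba-a1 and Hba-a2 under 1 CPM in cytosolic Camk2a. Summed excitatory markers (5 genes) had medians of 10060 and 8753 CPM. The part of these differences in the synthetase result was not tested. In bulk RNA, fewer cells of a type and less RNA per cell cannot be told apart.

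**Figure D2:**
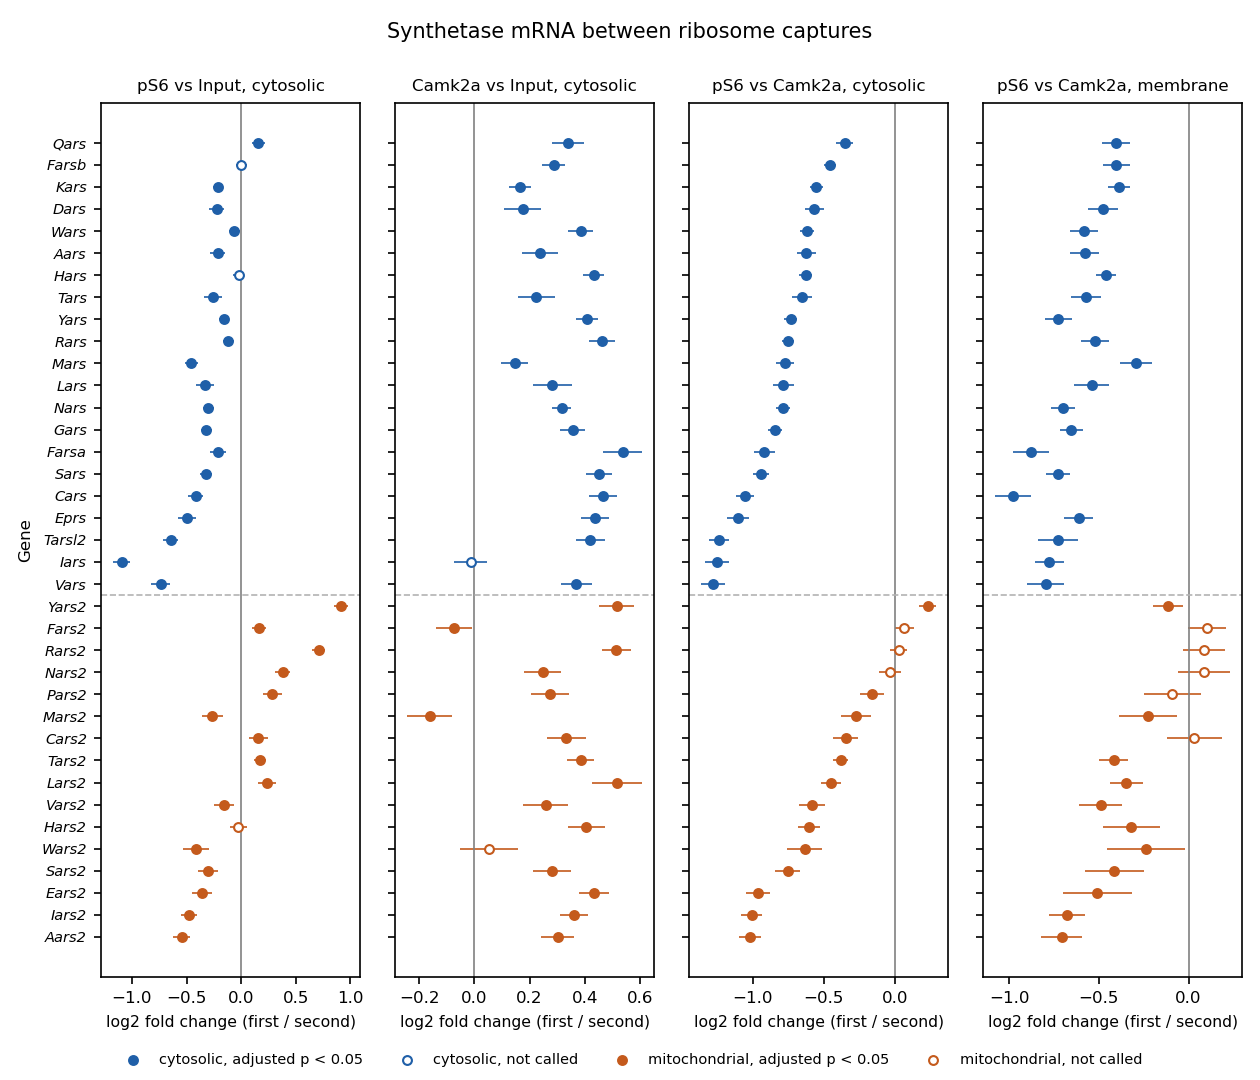
Difference between captures (log2, with 95% intervals) for 37 synthetases, from left to right pS6 minus Input, Camk2a minus Input and pS6 minus Camk2a in the cytosolic fraction and pS6 minus Camk2a in the membrane fraction; filled points passed the test. Every cytosolic enzyme lies below 0 for pS6 minus Camk2a in both fractions, while mitochondrial enzymes range from Aars2 (-1.02) to Yars2 (0.23) in the cytosolic fraction.

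The same libraries were also compared with Input, so the 3 sets of values below share samples and are given side by side. Against Input, 20 of 21 cytosolic enzymes were higher in cytosolic Camk2a, where 39.7% of all genes were, and 19 were higher in membrane Camk2a, where 41% were. Their median differences were 0.36 and 0.35. Farsa had the largest, 0.54 ± 0.036 in the cytosolic fraction (37.7, 46.7 and 57.4 CPM in Camk2a, 28.1, 31.7 and 40.1 in Input) and 0.71 ± 0.036 in the membrane fraction (47.7, 67.7 and 80.7 against 28.7, 40.8 and 49.0). The Farsa ranges overlapped in both fractions. Sars did not overlap in either, with 232, 249.98 and 291 CPM in cytosolic Camk2a and 171, 186 and 205 in cytosolic Input. Iars did not pass the test in either fraction (-0.01 ± 0.031 and 0.02 ± 0.032). Mars was higher in the cytosolic fraction (0.15 ± 0.025) and was the 1 cytosolic enzyme lower in the membrane fraction (-0.33 ± 0.036, lower in 30 of 30 mice), where 42.4% of all genes were lower. Summed marker medians moved between the same libraries: from Input to Camk2a, astrocyte markers went from 1192 to 172 CPM in the cytosolic and from 5033 to 1709 in the membrane fraction, and oligodendrocyte markers (5 genes) from 2417 to 374 and from 5694 to 1848. Excitatory markers went from 6236 to 10060 and from 7575 to 11767 CPM. Their part in the synthetase differences was not tested.

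For the mitochondrial enzymes the 2 fractions are given side by side, and the difference between them was not tested. In the cytosolic fraction 14 of 17 were higher in Camk2a than in Input, among them Lars2 (0.52), Yars2 (0.52) and Rars2 (0.51), and Mars2 (-0.16) and Fars2 (-0.07) were lower, where 42.9% of all genes were lower. Fars2 was not called with RLE size factors (-0.06, adjusted p = 0.073 by edgeR), with no filter on low counts (-0.04, adjusted p = 0.31) or by DESeq2 (adjusted p = 0.071). In the membrane fraction 4 were higher, Lars2 (1.47 ± 0.054), Yars2 (0.38), Ears2 (0.29) and Tars2 (threonine, 0.17). Mars2 (-0.49), Wars2 (tryptophan, -0.32) and Iars2 (-0.17) were lower there. The median was 0.33 in the cytosolic fraction and 0.03 in the membrane fraction, and -0.01 in the latter without Lars2. At least 2-fold differences were reached by 0 members in the cytosolic fraction and by Lars2 alone in the membrane fraction, against 14.3% and 16.7% of all genes.

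The pS6 capture was compared with Input in the same way. In the cytosolic fraction 18 of 21 cytosolic enzymes were lower, where 43.7% of all genes were, and Qars was higher (0.16 ± 0.030), while 9 of 17 mitochondrial enzymes were higher, where 43% were, and 7 were lower. Iars fell from 41.1, 47.5 and 56.3 CPM in Input to 18.5, 21.6 and 30.2 in pS6, without overlap and by 1.09 on the log2 scale (SE 0.040). Yars2 rose from 18.9, 22.2 and 26.4 CPM to 35.8, 41.9 and 50.6, without overlap and by 0.92 ± 0.033. Rars2 rose likewise from 18.2, 21.4 and 25.99 to 29.3, 35.8 and 41.1, by 0.71 ± 0.030, and Nars2 by 0.38. Aars2 (-0.55) and Iars2 (-0.48) were among the lower ones.

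In the membrane fraction 18 of 21 cytosolic enzymes were again lower in pS6 than in Input, where 41.5% of all genes were, with Iars at -0.73 ± 0.042 and Mars at -0.60 ± 0.045. Lars2 (1.14 ± 0.054), Yars2 (0.29) and Rars2 (0.18) were higher, where 36.5% of all genes were, and 8 mitochondrial enzymes were lower, led by Iars2 (-0.83 ± 0.052). Farsa (-0.14) was not called there without the choroid-rich mice (-0.11, adjusted p = 0.10 by edgeR) or with a minimum of 1 CPM in 14 libraries (-0.10, adjusted p = 0.086). Across both fractions 17 cytosolic enzymes were lower in each, and Hars, Farsb, Rars and Qars were the 4 that were not. A fold of at least 2 was reached by Iars in the cytosolic and by Lars2 in the membrane fraction, against 18.6% and 8.73% of all genes. Summed inhibitory markers had medians of 765 CPM in cytosolic pS6 and 607 in cytosolic Input, and 1640 and 1255 in the membrane fraction. Haemoglobin transcripts had 119 and 39.2 CPM in cytosolic pS6 and Input and 815 and 120.1 in the membrane fraction. Astrocyte markers had 483 and 1192 in the cytosolic and 2956 and 5033 in the membrane fraction, and oligodendrocyte markers 762 and 2417, and 2651 and 5694. Their part in the synthetase differences was not tested.

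The comparison of fractions asked how synthetase transcripts differed between the membrane pellet and the cytosolic supernatant. Input was not captured, so its values do not give the place of ribosomes. From cytosolic to membrane Camk2a, summed astrocyte markers went from a median of 172 to 1709 CPM and oligodendrocyte markers from 374 to 1848. Inhibitory markers went from 128 to 522 and excitatory markers from 10060 to 11767. Their part in the fraction differences was not tested. Cytosolic enzymes were called in both directions, at shares near those of all genes. Nearly the same members went each way in the 3 library kinds, which came from the same homogenates. Most mitochondrial enzymes were lower in the membrane fraction. In the Camk2a capture 10 cytosolic enzymes were higher in the membrane fraction and 11 lower, against 43% and 48.3% of all genes. In pS6 these counts were 10 and 10 (42.2% and 45.5% of all genes), and in Input 9 and 11 (40.9% and 49.2%). Aars, Cars, Eprs, Farsa, Iars, Lars, Qars, Tars and Vars were higher in the membrane fraction of all 3 library kinds. Dars, Farsb, Hars, Kars, Mars, Rars, Sars, Tarsl2, Wars and Yars were lower in all 3. The calls of Dars were lost under several settings. In Camk2a it was not called with RLE size factors (-0.06, adjusted p = 0.15 by edgeR), by DESeq2 (adjusted p = 0.15) or without the choroid-rich mice (adjusted p = 0.20), and in pS6 not without those mice (-0.08, adjusted p = 0.090). In Input Dars was not called with RLE size factors (-0.03, adjusted p = 0.44), by DESeq2 (adjusted p = 0.44) or with no filter (adjusted p = 0.51). With the same 3 settings, Gars and Aars2 were not called in Input. A fold of at least 2 was reached by 6 members in Camk2a, 7 in pS6 and 2 in Input, against 37%, 33% and 30.7% of all genes.

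Aars, the alanine enzyme, had 110, 124 and 149.9 CPM in cytosolic Camk2a and 206, 251 and 279 in membrane Camk2a, without overlap. The difference was 0.98 ± 0.031 (adjusted p = 3.4e-40 by edgeR), and it was 0.95 in pS6 and 0.85 in Input. Lars, which charges leucine tRNA and also takes part in leucine sensing upstream of mTORC1, had 22.6, 26.1 and 32.1 against 35.2, 48.2 and 61.5 CPM, also without overlap. Its differences were 0.89, 1.05 and 0.78 in Camk2a, pS6 and Input, and those of Eprs were 0.77, 1.18 and 0.74. Tars had 0.69, 0.69 and 0.66, and Qars 0.69, 0.56 and 0.63.

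Hars lay at the other end, with 155, 172 and 187 CPM in cytosolic and 65.8, 79.4 and 89.5 in membrane Camk2a. Its ranges did not overlap, and the differences were -1.13, -1.04 and -1.13 in the 3 library kinds (Camk2a SE 0.023, adjusted p = 1.3e-51 by edgeR). Mars had 44.96, 50.5 and 56.1 against 21.4, 26.5 and 29.8 CPM in Camk2a, and differences of -0.97, -0.58 and -0.53. Genes whose products work together lay on opposite sides. Farsa, the alpha subunit of the phenylalanine enzyme, had 0.79, 0.75 and 0.58, and its partner Farsb -0.44, -0.46 and -0.41. Of the 8 enzymes of the multisynthetase complex, Eprs, Iars, Lars and Qars were higher and Kars, Mars and Rars lower in the membrane fraction of each library kind. Dars was lower too, with the lost calls given above. Whether the fraction effect differed between captures was not tested.

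Of the 17 mitochondrial enzymes, 12 were lower in the membrane fraction of each library kind, with medians of -0.76, -0.55 and -0.53 in Camk2a, pS6 and Input against -0.09, -0.06 and -0.12 over all genes. Cars2 had 11.7, 15.1 and 17.1 CPM in cytosolic and 4.03, 5.23 and 7.39 in membrane Camk2a. The Cars2 ranges did not overlap, and its differences were -1.47, -1.18 and -1.13 (Camk2a SE 0.050). Rars2 had -1.26, -1.28 and -0.85. In all 3 kinds 11 were lower, among them Cars2, Ears2, Fars2, Hars2, Mars2, Nars2, Pars2, Rars2, Sars2 and Wars2.

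Lars2 and Vars2 (valine) were the mitochondrial enzymes higher in the membrane fraction of all 3 library kinds. Vars2 had 11.7, 13.8 and 18.1 against 15.97, 19.3 and 22.9 CPM in Camk2a, with overlap, and differences of 0.43, 0.44 and 0.63. Yars2 was higher in Camk2a (0.35) and Input (0.45) and did not pass the test in pS6 (-0.08 ± 0.043). Lars2 had 3056, 3620 and 4988 CPM in cytosolic and 10982, 13778 and 20976 in membrane Camk2a, without overlap. Its difference was 1.95 ± 0.049 (adjusted p = 3.1e-46 by edgeR), and it was 1.97 in pS6 and 0.96 in Input.

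Transcripts of other origin had larger differences in the same direction. The mitochondrial ribosomal RNA mt-Rnr2 was higher in the membrane fraction by 6.63, 5.44 and 3.14 in Camk2a, pS6 and Input. The non-coding RNA Gm26917 was higher by 5.81, 5.78 and 3.99. Against membrane Input these transcripts went apart. There mt-Rnr2 was lower in Camk2a and pS6 (-2.94 and -2.87), and Gm26917 was higher (1.81 and 2.92), as was Lars2. Counts of mitochondrial genes made up 0.00928 to 0.0203% of a cytosolic Camk2a library and 0.754 to 1.28% of a membrane one. A BLAST search of the Lars2 transcripts found no match to either mitochondrial ribosomal RNA (largest E-value 1e-10), nor 100 bases at 95% identity in a transcript of another gene. The search covered GENCODE vM21 transcripts only and could not show a match to sequence missing from them. Nuclear ribosomal RNA was not searched on its own, so the source of the Lars2 counts was not tested.

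**Figure D3:**
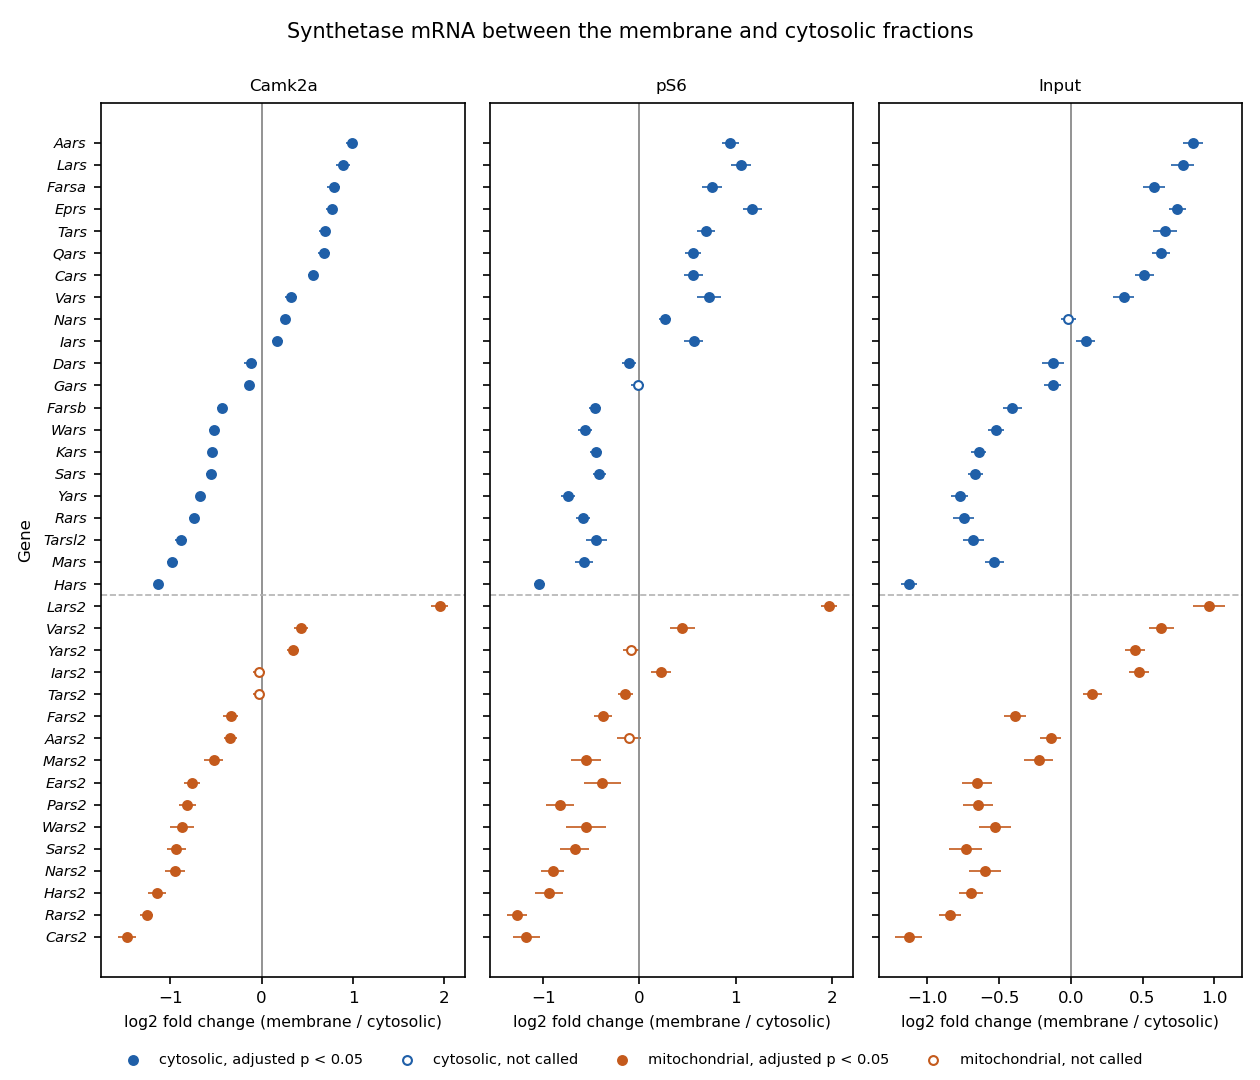
Difference between fractions (log2, membrane minus cytosolic, with 95% intervals) for 37 synthetases in Camk2a, pS6 and Input; filled points passed the test. Cytosolic enzymes spread on both sides of 0, from Hars to Aars in Camk2a (-1.13 to 0.98), and most mitochondrial enzymes lie below 0, with Lars2 far above.

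Sleep deprivation was compared with sleep within each library type, averaged over training. The share of members called was close to that of all genes in each type, as given below. No cytosolic enzyme passed edgeR's test in any of the 6 library types. Among mitochondrial enzymes, Sars2 (serine) was lower and Nars2 higher after SD in cytosolic Camk2a, where 6.28% of all genes were called in either direction. Pars2 and Rars2 were lower in cytosolic pS6, where 7.88% were called.

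Sars2 had 16.6, 20.9 and 22.9 CPM (lowest, median, highest) in the 16 Sleep mice and 15.7, 18.1 and 20.7 in the 14 SD mice. The ranges overlapped, and the difference was -0.16 ± 0.049 (log2, SE; adjusted p = 0.048 by edgeR). All 14 SD mice lay below the Sleep median of their training group. Nars2 had 13.1, 16.6 and 20.2 against 14.5, 18.97 and 21.7 CPM, a difference of 0.18 ± 0.051 (adjusted p = 0.029 by edgeR), with 13 of 14 SD mice above the Sleep median. Within runs of mouse numbers, Sars2 differed by -0.10, -0.15 and -0.23 in mice 1 to 11, 12 to 22 and 23 to 30, and Nars2 by 0.25, 0.21 and 0.01.

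Pars2 in cytosolic pS6 had 13.2, 14.9 and 19.4 CPM in Sleep and 10.2, 12.1 and 15.9 in SD, a difference of -0.26 ± 0.067 (adjusted p = 0.011 by edgeR, lower in 11 of 14 SD mice). Rars2 had 31.2, 34.9 and 39.4 against 27.9, 31.0 and 36.5 CPM, a difference of -0.14 ± 0.046 (adjusted p = 0.044 by edgeR, 10 of 14). Both pairs of ranges overlapped, and within the 3 runs the differences were -0.12, -0.27 and -0.45 for Pars2 and -0.12, -0.14 and -0.19 for Rars2. In the same libraries all 7 inhibitory neuron markers were higher after SD, with summed medians of 673 CPM in Sleep and 829 in SD, and whether this bears on Pars2 and Rars2 was not tested. Without the 7 mice rich in choroid plexus transcripts, none of the 4 calls passed the threshold: Sars2 had -0.18 (adjusted p = 0.073 by edgeR), Nars2 0.16 (adjusted p = 0.19), Pars2 -0.21 (adjusted p = 0.16) and Rars2 -0.10 (adjusted p = 0.36). The shares of all genes called fell too, from 6.28% to 3.48% in cytosolic Camk2a and from 7.88% to 4.48% in cytosolic pS6.

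In membrane Camk2a, membrane pS6, cytosolic Input and membrane Input, edgeR called 0 members after SD, where 2.97%, 1.73%, 3.17% and 1.37% of all genes were called. Unadjusted p was under 0.05 for 5, 5, 5 and 3 of 38 members, against 14.7%, 13.8%, 14.5% and 10.2% of all genes. DESeq2 called 2, 1, 0 and 0 members, against 3.89%, 2.8%, 4.2% and 1.78% of all genes. In membrane pS6, 20 of 21 cytosolic enzymes had a negative difference with a median of -0.08, none of them called, and the median over all genes was -0.0038. Summed inhibitory markers in membrane pS6 had medians of 1429 CPM in Sleep and 1857 in SD, with 4 of 7 called higher, and excitatory markers 9702 and 9003, and their part was not tested. The difference of the SD effect was tested between fractions in the 3 library kinds and between captures in the 2 fractions. edgeR called 0 members in each, with unadjusted p under 0.05 for 2, 1, 1, 2 and 0 members, against 2.48%, 4.72%, 3.35%, 8.3% and 4.45% of all genes. All genes gave 0 calls for the 3 fraction tests and 0.586% and 0.0589% for the 2 capture tests. DESeq2 was not run for these.

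**Figure D4:**
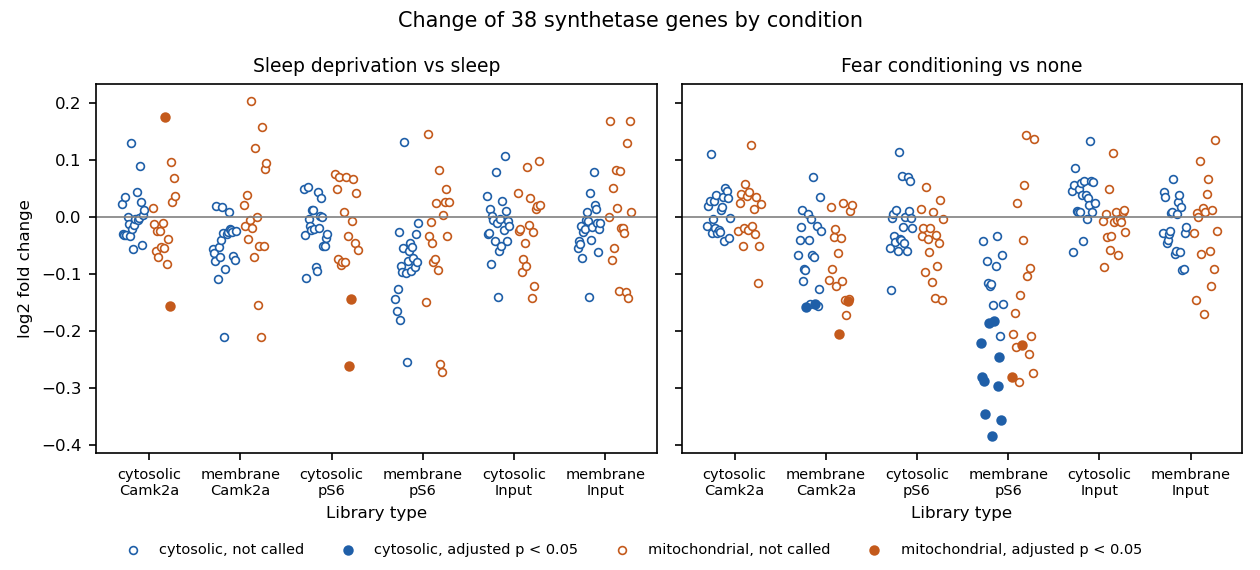
Difference after SD (SD minus Sleep) and after training (CFC minus NoCFC) on the log2 scale for each synthetase in the 6 library types, each point 1 gene, filled where adjusted p was under 0.05. SD calls are limited to Sars2, Nars2, Pars2 and Rars2 in the cytosolic captures, and the CFC calls lie in the membrane captures.

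Training gave its calls in the membrane captures. CFC mice had lower levels than NoCFC mice for 12 synthetases in membrane pS6, where 8.75% of all genes were lower, and for 4 in membrane Camk2a, where 7.17% were. None was higher. In membrane pS6 all 21 cytosolic enzymes had negative differences (median -0.18) and 10 were called. Of the 17 mitochondrial enzymes 13 were negative, and Aars2 and Lars2 were called. The median over all genes was 0.00 in that library type. As the run values show, these calls were not seen where training could be compared within a run, with 4 NoCFC and 4 CFC mice. There 0.0184% of all genes were called in membrane pS6 and 0.0134% in membrane Camk2a. A lack of calls with so few mice says little about these members.

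Lars had 29.3, 36.6 and 47.1 CPM in the 15 NoCFC mice and 23.6, 26.4 and 42.1 in the 15 CFC mice of membrane pS6. Its ranges overlapped, and the difference was -0.39 ± 0.071 (adjusted p = 0.00022 by edgeR, lower in 14 of 15 mice). Sars had 81.9, 98.8 and 114 against 67.8, 79.3 and 96.1 CPM, a difference of -0.30 ± 0.052 (adjusted p = 0.00012 by edgeR). Vars (-0.36), Farsa (-0.35), Eprs (-0.29), Cars (-0.28), Tars (-0.25), Aars (-0.22), Hars (-0.19) and Nars (-0.18) were the other cytosolic enzymes called. Vars had 31.6, 43.8 and 53.9 CPM in NoCFC and 21.9, 33.4 and 45.1 in CFC mice. Farsa had 33.8, 41.9 and 58.3 against 18.4, 34.6 and 40.7 CPM. The ranges of NoCFC and CFC mice overlapped for all 12 members called in this library type. Farsa and Eprs were lower in 15 of 15 CFC mice than the NoCFC median of their sleep group. Aars2 (-0.28) had 12.9 to 23.7 CPM in NoCFC and 10.03 to 23.1 in CFC mice.

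In membrane Camk2a the called members were Lars2 (-0.21, adjusted p = 0.024 by edgeR), Hars (-0.16), Sars (-0.15) and Tars2 (-0.15). Hars had 70.5, 74.3 and 81.8 CPM in NoCFC and 59.1, 67.2 and 73.8 in CFC mice, with 15 of 15 CFC mice below the NoCFC median of their sleep group. The ranges of all 4 genes overlapped. Hars, Sars and Lars2 were thus lower in both membrane captures, which come from the same mice.

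Training and run coincided in mice 1 to 22, and only mice 23 to 30 held all 4 groups, 2 mice each. In membrane pS6, Lars averaged 38.6 ± 5.8 CPM (SD) in NoCFC mice 1 to 11 and 27.4 ± 4.0 in CFC mice 12 to 22, but 33.7 ± 3.2 and 32.2 ± 6.9 in the NoCFC and CFC mice of run 23 to 30. Aars averaged 184 ± 19.6 and 143 ± 14.1 in the first 2 runs, and 151 ± 16.1 in NoCFC and 170.0 ± 26.3 in CFC mice of the last. Lars2 in membrane Camk2a averaged 14910 ± 1735 and 12312 ± 925, and then 11225 ± 474 and 11370 ± 1372. The NoCFC mice of the last run thus lay below those of the first run for each of these 3 genes.

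With run as a term, or in mice 23 to 30 alone, edgeR called 0 of 38 members in both membrane captures. Both settings take the training difference from mice 23 to 30, so they are not separate checks. Among all genes the calls in membrane pS6 went from 2803 to 12 and 3. Within mice 23 to 30 the median difference of the 38 members was -0.06 in membrane pS6, with 28 negative, and -0.05 in membrane Camk2a, with 26 negative. Training and run cannot be told apart in mice 1 to 22. Other measures moved with them: the number of genes detected had a median of 25771 in NoCFC and 21784 in CFC libraries of membrane pS6, and 22821 and 20924 in membrane Camk2a. Summed haemoglobin transcripts in membrane pS6 had medians of 644 and 941 CPM, and summed astrocyte markers in membrane Camk2a 1592 and 2078. The Camk2a transcript was lower in CFC mice of membrane pS6 (-0.31, adjusted p = 0.00048 by edgeR) and membrane Camk2a (-0.18, adjusted p = 0.013). So were Gm26917 (-1.63 and -1.93) and Rab3gap2 (-0.37 and -0.17), while Rpl22 and mt-Rnr2 did not pass the test. What these share with the synthetase calls was not tested. Without the choroid-rich mice Lars2 was not called in membrane pS6 (-0.19, adjusted p = 0.058 by edgeR) or in membrane Camk2a (-0.18, adjusted p = 0.13), nor was Tars in membrane pS6 (-0.19, adjusted p = 0.098).

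**Figure D5:**
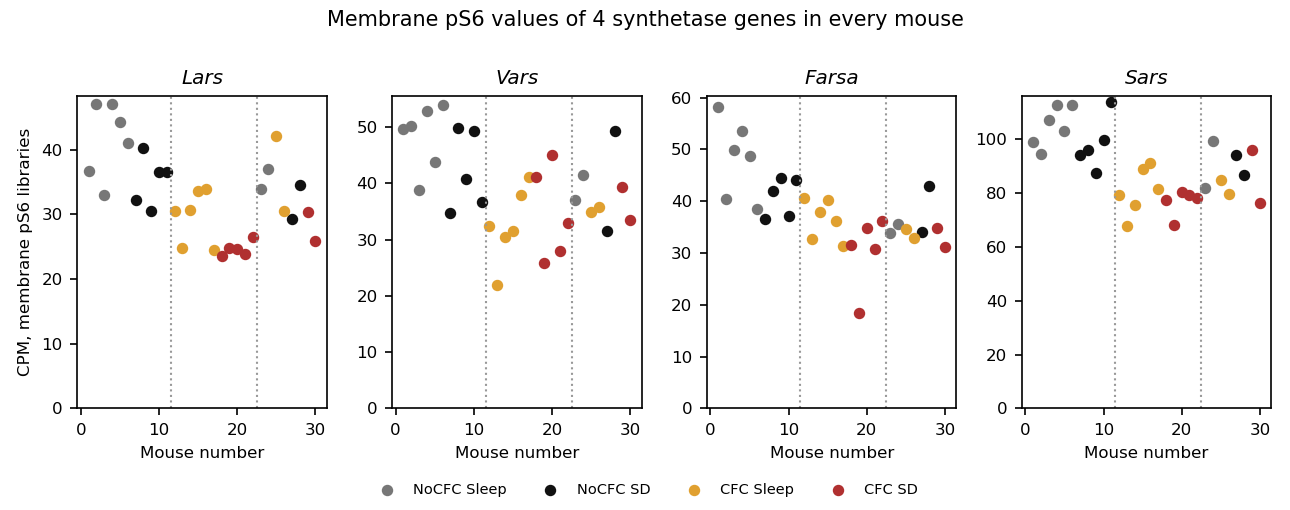
CPM of Lars, Vars, Farsa and Sars in membrane pS6 against mouse number, each point 1 mouse coloured by group, with dotted lines between the runs of mouse numbers. The CFC mice 12 to 22 lie mostly below the NoCFC mice 1 to 11, and the NoCFC and CFC mice of run 23 to 30 overlap.

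In cytosolic Camk2a, cytosolic pS6, cytosolic Input and membrane Input, edgeR called 0 members for CFC, where 0.148%, 0.133%, 0.219% and 6.53% of all genes were called. Unadjusted p was under 0.05 for 2, 2, 2 and 1 members, against 7.71%, 6.81%, 9.12% and 21.5% of all genes, and DESeq2 called 0 members in each. The interaction of CFC and SD gave 0 members and 0% of all genes in each of the 6 library types by edgeR, with unadjusted p under 0.05 for 0, 0, 1, 1, 0 and 1 members, against 1.99 to 4.76% of all genes, and DESeq2 called 0 members. Replicates were separate mice by their numbers.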

How the data were processed

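The deposited table holds whole-number counts per gene for 180 libraries (30 mice, 6 library types). Per the labels' protocols, libraries were made with SMART-seq v4. The submitters' processing notes name STAR 2.6.1a, featureCounts without a version, MultiQC 1.6a0 and GRCm38.p6. Strand settings are not given in the sources used here, and 15 of 38 members share exon bases with another gene.

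The members and gene lists were chosen with earlier results of these data known. Every member could be named, those past the threshold first by size of change. For 1 member, the values are counted in the totals and not reported by name here, and 1 promoter sequence is not reported. Counts were fitted with edgeR 4.0.16 (R 4.3.3, limma 3.58.1): filterByExpr, TMM, robust quasi-likelihood F-test, Benjamini-Hochberg over all genes tested and a threshold of 0.05. Each library type was fitted alone for SD and CFC. Pairs of types were fitted together, with the 4 groups as additive term and no mouse block. SEs were derived from the fold change and the F statistic. DESeq2 1.42.0, RLE size factors, other filters, run terms and subsets of mice were alternatives. Levels per kilobase used merged exon lengths of GENCODE vM21. Within-run differences used log2(CPM + 0.1).

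Titles number the mice, and the extract protocol divides 1 homogenate into the 6 libraries, so equal numbers were taken as the same animal. Same-number libraries had a median correlation of 0.320 after removal of group means, against -0.0558 for different numbers. Of 900 best matches, 338 had their own number. No 2 libraries of a group were copies (lowest chi-square per degree of freedom 2.86). Totals of 11.98 to 26.95 M counts limit precision, and without molecular identifiers reads are not independent molecules.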

Additional observations from a re-analysis of the deposited data

Results flagged for a closer look

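Of 80 groups of mice examined for members with a call, 4 held a mouse far from the others of its group, and chance gives about 1 in 20. In cytosolic Camk2a, CFC Sleep mouse 26 had 20.16 CPM of Nars2, and the others of that group had 16.04 to 17.67. In cytosolic pS6, CFC SD mouse 20 had 15.94 CPM of Pars2, and the others had 10.18 to 12.11. In membrane pS6, CFC SD mouse 29, which was among the mice rich in choroid plexus transcripts, had 30.35 CPM of Lars, and the others had 23.55 to 26.43. In the same library type CFC SD mouse 19 had 18.44 CPM of Farsa, and the others had 30.82 to 36.21.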

How the results depend on the processing

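Counts of called members stayed within 1.5 times under RLE size factors (32 of 32 counts) and with Tarsl2 among the mitochondrial enzymes (18 of 18). The replicate block by mouse changed none of 14 counts, for example 34 and 32 for pS6 minus Camk2a, and all 301 calls of single genes held with it.

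SD calls were few and changed with the setting, as did the shares of all genes called in either direction. In cytosolic Camk2a the 2 calls became 0 with no filter on low counts, 1 with run as a term, 1 in mice 1 to 22, 0 in mice 23 to 30 and 0 without the choroid-rich mice. Of all genes, 6.28% were called in the main fit and 2.09%, 6.36%, 2.55%, 0.0138% and 3.48% under these settings in turn. In cytosolic pS6 the 2 became 1 with no filter, and 0 in mice 1 to 22, in mice 23 to 30 and without the choroid-rich mice. There the share of all genes went from 7.88% to 2.71%, 2.83%, 0.767% and 4.48%. In membrane Camk2a the 0 became 1 with no filter, 1 with run and 2 with DESeq2, and in membrane pS6 1 with a minimum of 1 CPM in 14 libraries, 1 with run and 1 with DESeq2. The shares of all genes were 2.97% in the main fit of membrane Camk2a, then 0.809%, 3.39% and 3.89%. For membrane pS6 they were 1.73%, then 2.21%, 2.26% and 2.8%.

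For CFC, the 4 calls in membrane Camk2a became 2 with no filter, and 0 with run or in mice 23 to 30. Of all genes, 17% were called in either direction in the main fit there and 8.62%, 0.00668% and 0.0134% under these settings. The 12 in membrane pS6 became 0 with run and in mice 23 to 30. There the share of all genes went from 16.8% to 0.0721% and 0.0184%. With run and in mice 23 to 30, the difference turned to 0.016 and 0.016 for Lars2 in membrane Camk2a, and in membrane pS6 to 0.17 and 0.16 for Aars, 0.11 and 0.11 for Cars, and 0.0068 and 0.0054 for Eprs. Training and run cannot be told apart in mice 1 to 22.

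When a fold of at least 2 was also needed, calls between fractions went from 36, 35 and 37 to 6, 7 and 2 in Camk2a, pS6 and Input. Camk2a minus Input went from 36 and 27 to 0 and 1, pS6 minus Input from 35 and 29 to 1 and 1, and pS6 minus Camk2a from 34 and 32 to 7 and 0, cytosolic before membrane. Leaving Lars2 out and leaving out the choroid-rich mice were chosen after seeing the data, and under the latter 309 calls of single genes held and 12 did not. The causes were not tested. Iars shares 1656 bases at 96.0% identity with the pseudogene Gm4849. Of the exon bases of Iars2, 24.2% lie in Rab3gap2 and a further gene, both on the opposite strand.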

Other observations

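Genes that work beside the synthetases were read in the same fits. The 4 genes of indirect mitochondrial charging (Gatb, Gatc, Qrsl1 and Mtfmt), which make glutaminyl-tRNA and formylmethionyl-tRNA in mitochondria, were all lower in the membrane fraction of Camk2a, pS6 and Input, with medians of -1.01, -0.91 and -0.78, where 48.3%, 45.5% and 49.2% of all genes were lower. Pstk and Sepsecs, which turn serine on its tRNA into selenocysteine, were lower in it too, with medians of -0.91, -0.78 and -0.70. Of 7 genes for scaffolds of the multisynthetase complex and for editing of mischarged tRNA, 6 were tested, and the membrane fraction was lower for 6, 4 and 6 of them in Camk2a, pS6 and Input, against the same shares of all genes. Xpot, the exporter of tRNA from the nucleus, was lower too (-1.28, -0.69 and -1.12 on the log2 scale).

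Between captures, the scaffold gene Aimp1 was lower in pS6 than in Camk2a (-0.92 in the cytosolic fraction and -0.59 in the membrane fraction), as was Aimp2 (-0.59 and -0.44), and Xpot (-0.93 and -0.26). Of 17 tested genes of the integrated stress response, 10 were higher and 7 lower in cytosolic pS6, and 8 and 7 in membrane pS6. The shares of all genes were 44.8% (higher) and 45.9% (lower) for cytosolic pS6, against 43.7% and 40.1% for membrane pS6. Atf4 itself was higher (1.29 and 0.82), as were Atf3 (2.01 and 2.15) and Ddit3 (0.90 and 0.94), while the asparagine synthetase gene Asns was lower (-0.50 and -0.44). The 13 cytosolic synthetases often listed as ATF4 targets were all lower in both fractions.

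After SD, Pstk was lower in cytosolic Camk2a (-0.33), membrane Camk2a (-0.29) and cytosolic Input (-0.24), each past edgeR's threshold. Of all genes, 6.28%, 2.97% and 3.17% were called there in either direction. The amino acid transporter gene Slc7a11 was higher in membrane pS6 (0.39) and the serine synthesis gene Phgdh in cytosolic pS6 (0.34). There 1.73% and 7.88% of all genes were called in either direction. Summed astrocyte markers had medians of 2768 CPM in Sleep and 3061 in SD in membrane pS6, and 436 and 531 in cytosolic pS6. Their part was not tested, and results without the choroid-rich mice are not given for Pstk, Slc7a11 and Phgdh.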
